A study of Zea mays with 36 samples.

Results

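The probes described here are those whose transcripts stood at about the control level in maize seedling roots after 30 min in nitrate and below it after 24 h. A probe was included when its mean log2 ratio of nitrate over control lay between -0.3 and 0.3 at 30 min and at or under -0.6 at 24 h, with at least 5 of the 6 replicates below 0 at 24 h. Of the 7688 probes on the array, 155 met this rule (2.02%). The probes were thus chosen by their measured ratios at both times, and those ratios describe them below and test nothing. The mirror image of the rule, with a mean ratio at or over 0.6 at 24 h and at least 5 replicates above 0, was met by 159 probes.

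The roots came from seedlings of the maize inbred line B73, grown in 5 mM calcium sulfate and then placed either in 5 mM calcium nitrate or, as the control, in fresh 5 mM calcium sulfate. Late plants were moved on day 10 and stayed in the new solution for 24 h, and early plants were treated on day 11 for 30 min. Each of the 12 replicates, 6 per time and all of separate plants, paired a nitrate sample with a control sample on 1 spotted cDNA array, with different dyes (Cy3 and Cy5) and with nitrate on either dye in 3 replicates of a time. Arrays were read at 3 laser powers named High, Medium and Low, so 36 scans stand for 12 replicates. The control kept its sulfate while the nitrate roots lost it, so that effects of nitrate given and of sulfate withdrawn cannot be told apart. The labels also describe the RNA as pooled, without a number. In whole roots, fewer cells of one type and less RNA per cell cannot be told apart either.

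Nitrate is the main nitrogen source of maize in aerated soil. Roots take it up through nitrate transporters, nitrate and nitrite reductase turn it into ammonium, and glutamine synthetase and glutamate synthase build that into amino acids. Genes of uptake and reduction are known to rise within minutes of contact with nitrate, while changes over a day also include adjustments to a plant that is no longer short of nitrogen, such as feedback on high-affinity uptake. Sulfate, which only the control roots had during the treatment, is taken up by transporters of its own and reduced to sulfide for cysteine synthesis.

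The probes carry clone accessions. The reference table used here matched 1 of the 7688 probes and 0 of the 155, so no gene name or role can be given for any of them. A list of 27 symbols of nitrate and sulfate uptake and assimilation genes was looked up. The reference table held 17 of them, and 0 probes matched, so the known pathway genes are not analysed here, and the root label could not be checked against marker genes.

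Scans differed in brightness. The median foreground of a channel was 3733 to 30230 units at High power, 1584 to 21030 at Medium power and 515.3 to 1416 at Low power. Replicate 3 at 24 h stood apart, where 30.4% of spots were saturated at High power and 21.9% at Medium power, against at most 9.24% and 1.67% in the other replicates. Without these readings the rule took 165 probes, 148 of them among the 155. At 30 min, replicates 5 and 6 had a median Cy3 background of 1607 and 1700 at High power, against 202 to 1009 in the other replicates. With 30 min replicates 1 to 4 only, the rule took 154 probes, 151 of them among the 155. The 155 probes were of ordinary brightness. In 5 equal classes of all probes, from the dimmest to the brightest, they numbered 39, 27, 35, 29 and 25, and 152 of them were above local background in both channels of all 12 High scans. No low-signal filter was applied, and all 155 enter the counts below.

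At 24 h the mean log2 ratios of the 155 probes ran from -1.93 to -0.60, with a median of -0.78. Many lay close to the limit. A mean between -0.7 and -0.6 was found for 50 of them, 68 were at or under -0.8, 35 at or under -1 (a 2-fold lower level in nitrate), and 0 at or under -2. The mirror set reached further, with 56 probes at or over 1, 4 at or over 2 and a highest mean of 3.65. At 30 min the means of the 155 lay between -0.29 and 0.29, with a median of -0.06. In all, 170 probes met the 24 h conditions, and those left out by the 30 min limits were 11 with a 30 min mean under -0.3 and 4 with one over 0.3.

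**Figure D1:**
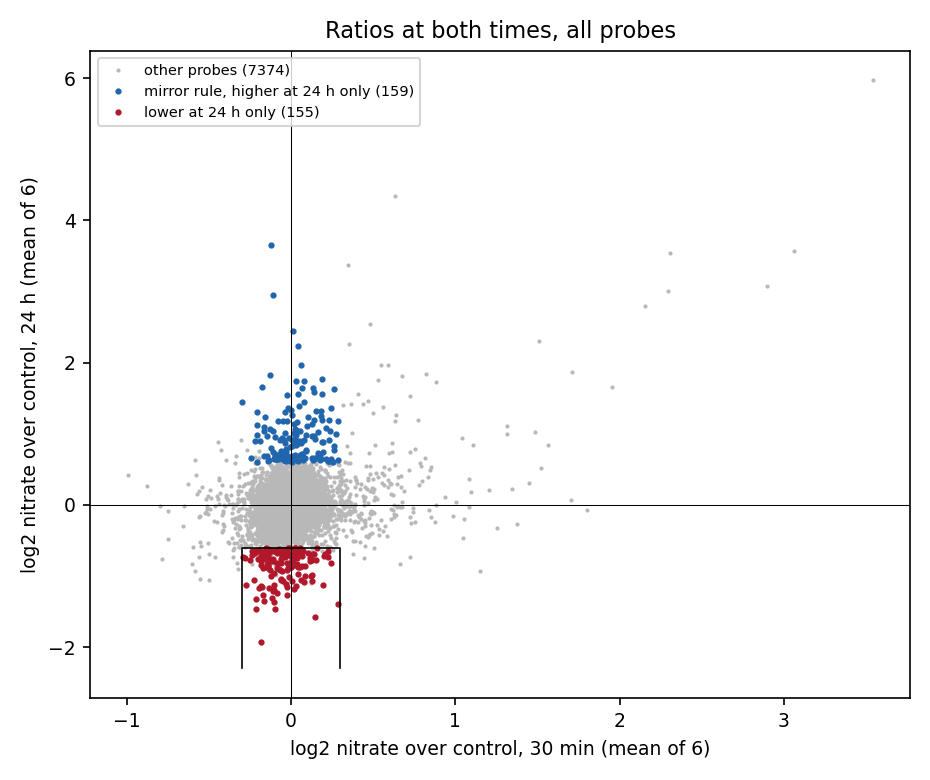
Mean log2 ratio of nitrate over control at 30 min (x axis) and at 24 h (y axis), each the mean of 6 replicates, for all 7688 probes. The 155 probes in red fill the boxed corner of the rule down to -1.93, while the 159 mirror probes in blue reach up to 3.65.

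BM076073 had the lowest mean ratio at 24 h. Its 6 replicates were -2.51 at the lowest, -2.03 at the median and -1.10 at the highest, around a mean of -1.93 ± 0.48 (SD, n = 6), which is 0.263 of the control level. At 30 min they ran from -0.56 over a median of -0.09 to 0.02, with a mean of -0.18 ± 0.23 (SD, n = 6). The groups did not overlap, and at 24 h every replicate was below -1.

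BM079200 came next, with a less even set of values. At 24 h its lowest replicate was -3.29, its median -1.54 and its highest -0.45, around a mean of -1.58 ± 0.97 (SD, n = 6). At 30 min it ran from -0.26 over 0.08 to 0.60, with a mean of 0.15 ± 0.34 (SD, n = 6). The groups were apart as well, but its 24 h mean was -2.15 at High, -1.48 at Medium and -1.10 at Low power. Its size thus depended on the scan power, and its direction was set by the rule.

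The evenness of the 6 replicates differed strongly among the 155 probes. Their SD over the 24 h replicates had a median of 0.55, against 0.45 over all probes and 0.45 in the mirror set, and ran from 0.08 to 1.58. DV491080 was the most even. Its 24 h replicates lay between -0.82 and -0.63 with a median of -0.79, around a mean of -0.76 ± 0.08 (SD, n = 6), although its 30 min values spread from -0.48 to 0.39. BG841008 followed, with a lowest 24 h replicate of -1.06, a median of -0.88 and a highest of -0.66 (mean -0.89 ± 0.15, SD, n = 6), below all its 30 min values of -0.44 to 0.10. It is the average of a pair of spots with 24 h means of -0.59 and -1.19.

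At the other end stood DV490883 and DV493291, each with 1 very low replicate. DV490883 had a mean of -0.88 ± 1.58 (SD, n = 6) at 24 h, from a replicate at -4.02, a median of -0.27 and a highest value of 0.20. Without the lowest replicate its mean was -0.25. The low value came largely from the Medium scan, since its 24 h mean was -1.75 over the Medium scans but -0.43 over the High and -0.46 over the Low scans. DV493291 was also the dimmest of the 155 and had replicates from -3.67 over a median of -0.33 to 0.09 around a mean of -0.82 ± 1.43 (SD, n = 6). It was at or under local background in both channels of 1 of 6 High scans at 24 h, and its mean without the lowest replicate was -0.26. For these probes the mean met the rule through 1 array, 24 h replicate 2.

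**Figure D2:**
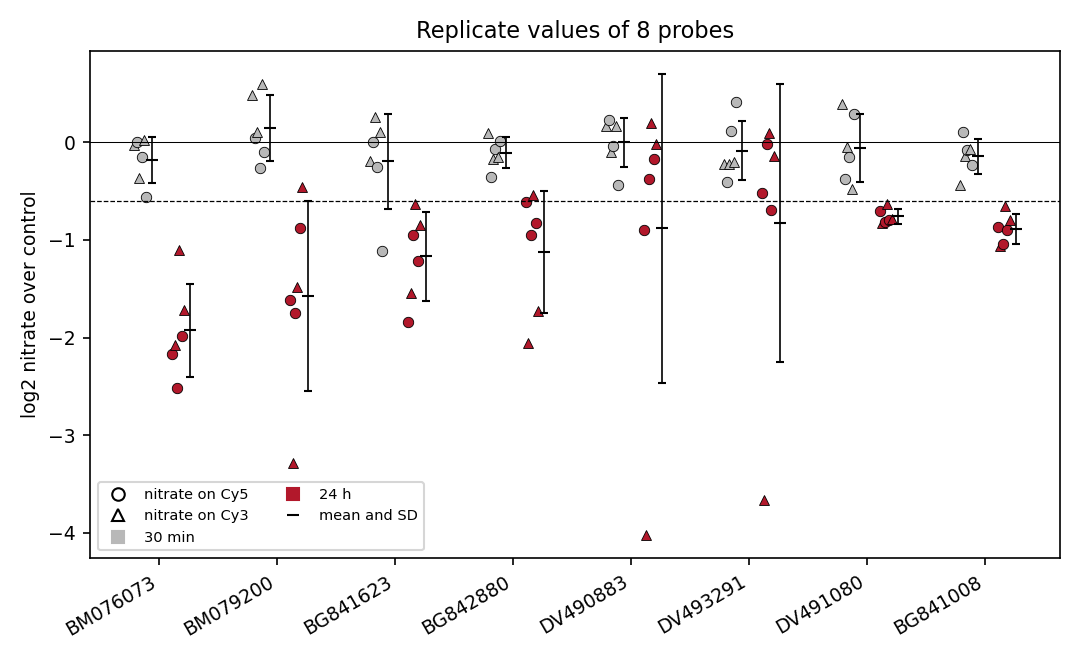
Log2 ratio of nitrate over control (y axis) in every replicate of 8 probes, 30 min in grey and 24 h in red, with circles where nitrate was on Cy5 and triangles where it was on Cy3; bars give the mean and SD of 6 replicates and the dashed line the limit of -0.6. The 6 values of DV491080 at 24 h lie between -0.82 and -0.63, while DV490883 and DV493291 each owe their low mean to 1 value under -3.

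Over all 155 probes, 102 were below 0 in 6 of 6 replicates at 24 h and 53 in 5 of 6. All probes gave 6 of 6 for 3.68%, a share that the rule's own condition on signs sets apart from the 155. Every replicate was at or under -0.3 for 44 of the 155 and at or under -0.6 for 14. The 24 h replicates all lay below the 30 min replicates for 30 of the 155 probes, and for 0.78% of all probes. Leaving out each probe's lowest replicate kept the mean at or under -0.6 for 80 of the 155 and moved it above -0.3 for 6.

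The arrays contributed unequally to the low ratios at 24 h. The median log2 ratio of the 155 probes at 24 h was -1.03 in replicate 1, -1.04 in replicate 2, -0.77 in replicate 3, -0.51 in replicate 4, -0.90 in replicate 5 and -0.58 in replicate 6. In each of these arrays between 133 and 154 of the 155 were below 0, which the rule's condition on signs largely sets. The median of all probes in these arrays lay within 0.07 of 0. Replicate 1 held the lowest value of 46 probes and replicate 2 that of 52, against 11 to 20 for each of the other 4. At 30 min the medians were between -0.08 and 0.10 in replicates 1 to 5 and -0.27 in replicate 6. Single 30 min values were less narrow than their means: 12 of the 155 had all 6 within 0.3 of 0, and 54 had at least 1 replicate at or under -0.6.

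**Figure D3:**
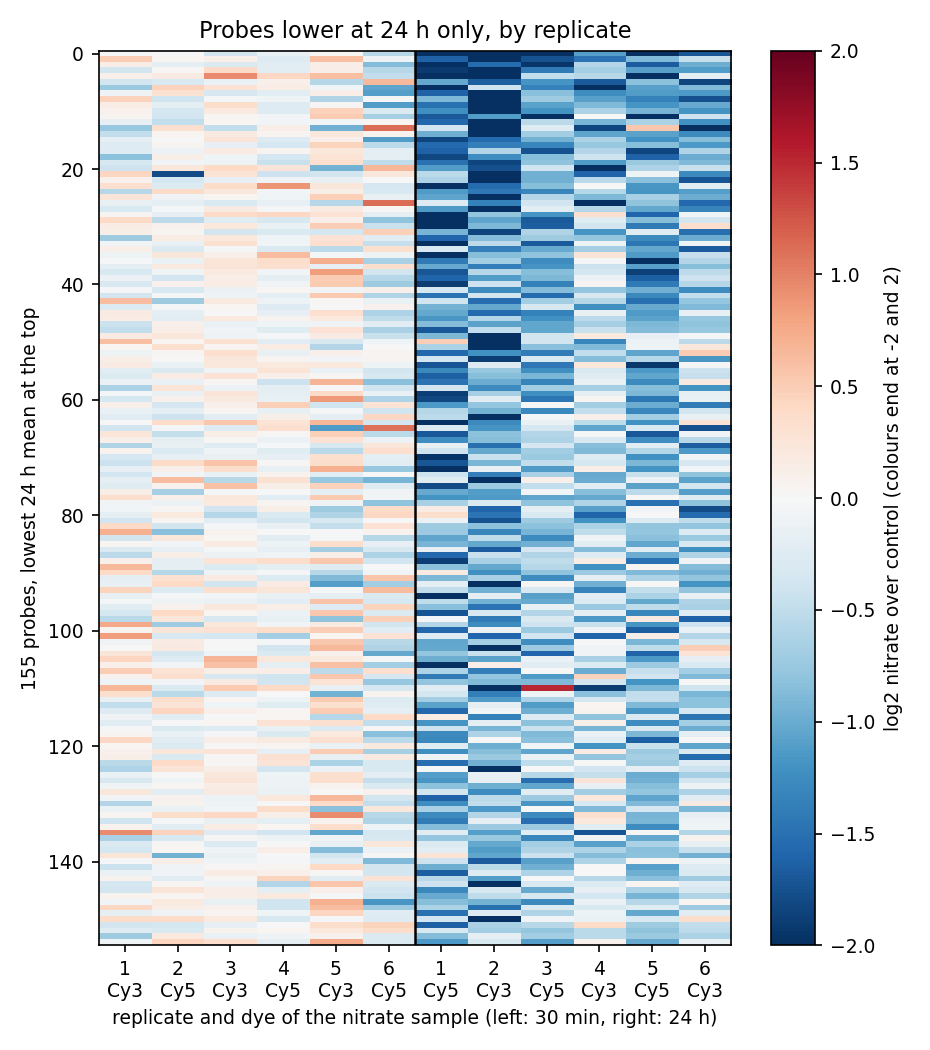
Log2 ratio of nitrate over control (colour, blue for lower in nitrate, ending at -2 and 2) for the 155 probes (rows, lowest 24 h mean at the top) in the 12 replicates (columns, 30 min on the left and 24 h on the right, with the dye of the nitrate sample). The 24 h columns are mostly blue, with the lowest medians in replicates 1 and 2 (-1.03 and -1.04) and the fewest probes below 0 in replicate 4 (133), and 30 min replicate 6 is the bluest of the early columns.

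The dye on which nitrate was labelled moved the ratio of many probes. At 24 h the mean over the 3 replicates with nitrate on Cy5 and the mean over the 3 with nitrate on Cy3 had opposite signs for 72.6% of all probes. Among the 155 probes both means were below 0 for 153, which the rule's condition on signs favours. The size of the gap between the orientations was nonetheless the usual one, with a median of 0.69 in the 155, 0.67 over all probes and 0.57 in the mirror set. As a result both orientation means were at or under -0.6 for only 41 of the 155, and for 45 of all probes. For 68 the limit was reached with nitrate on Cy5 alone and for 46 with nitrate on Cy3 alone, and 45 had 1 orientation mean above -0.3. The medians were -0.97 with nitrate on Cy5 and -0.75 with nitrate on Cy3. The gap was smaller at 30 min, with a median of 0.27 in the 155, 0.22 over all probes and 0.22 in the mirror set. In the limma model a dye effect common to all arrays passed for 58 of the 155 (37.4%), against 43.6% of all probes. This common dye effect is an average over times with gaps of unlike size.

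**Figure D4:**
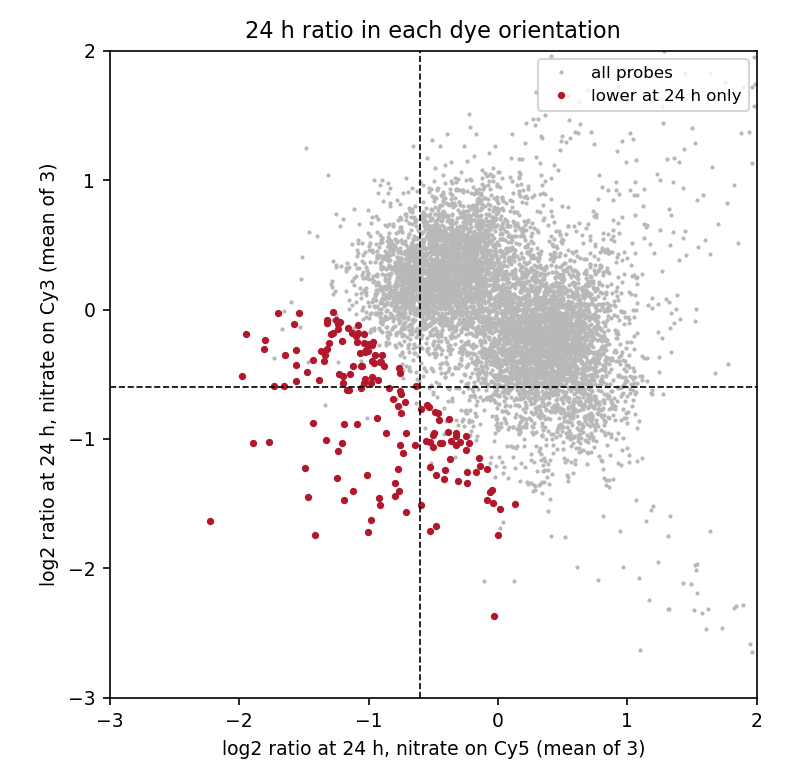
Mean log2 ratio at 24 h over the 3 replicates with nitrate on Cy5 (x axis) and over the 3 with nitrate on Cy3 (y axis); grey points are all probes, red points the 155, and dashed lines mark -0.6. The grey points form 2 clouds of opposite dye effect, 41 red points lie under both lines, and 38 probes, 0 of them red, fall outside the axes.

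The limits of the rule cut through a continuous range. DV550230 was just inside the 24 h limit at -0.602 ± 0.542 and BG873844 just outside at -0.5999 ± 0.4876 (SD, n = 6 each), so that their gap was far smaller than the spread of either. At the lower 30 min limit BM339730 was inside with a mean of -0.29 ± 0.55 and DV490621 outside with -0.32 ± 0.44. At the upper one BM074035 was inside with 0.29 ± 0.49 and BG841432 outside with 0.38 ± 0.36. A further 70 probes had 24 h means between -0.6 and -0.5 with the other conditions met, and 23 met both limits on the means with fewer than 5 replicates below 0.

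Clones spotted at 2 places on the array allow a look at the same transcript in separate spots. The rule used the average of both spots, so low values in both are partly set by the choice of probes. Of the 200 probes with 2 spots, 9 were among the 155. Both spots were below 0 on average at 24 h for 9 of these 9 and at or under -0.6 for 4, and the gap between the spots had a median of 0.19 and a largest value of 0.60, in BG841008. BG841623 gave -1.23 in one spot and -1.11 in the other. Over both spots its replicates ran from -1.84 over a median of -1.08 to -0.63 at 24 h (mean -1.17 ± 0.45, SD, n = 6) and from -1.11 over -0.09 to 0.26 at 30 min (mean -0.20 ± 0.49, SD, n = 6). The groups overlapped only through 30 min replicate 6, its lowest early value. BG842880 gave -1.08 and -1.16 in its spots. Its replicates ran from -2.06 over -0.89 to -0.54 at 24 h, below all its 30 min values of -0.35 to 0.09.

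The 24 h means were also compared between scan powers. The rule used the average over these powers, so low means at each of them are partly set by the choice of probes. A 24 h mean at or under -0.6 was found for 120 at High, 143 at Medium and 142 at Low power and for 108 at each of the 3 powers, while 154 were below 0 at each. A saturated channel was seen in a High scan for 31 of the 155 and in a Low scan for 0. DV492319, the brightest of them, was saturated in at least 1 channel of all 12 High scans. Its 24 h mean was -0.03 at High power, -0.63 at Medium power and -1.31 at Low power. Averaged over the scans its 24 h replicates were -1.09 at the lowest, -0.61 at the median and -0.16 at the highest (mean -0.66 ± 0.35, SD, n = 6), against -0.19, -0.04 and 0.31 at 30 min. The Low scans alone thus gave a lower level in nitrate than the average did.

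In the fit of the scanner values across all probes (limma, Benjamini-Hochberg adjusted p under 0.05), 149 of the 155 were called lower at 24 h, where 7.35% of all probes were. At 30 min 0 of the 155 were called in either direction, where 1.14% of all probes were. At an unadjusted p under 0.05 the same limma fit gave 0 of the 155 and 4.03% of all probes. The change of the ratio between the times was called lower for 90 of the 155 and for 1.94% of all probes. The rule used each of these contrasts, and nothing is read from the counts. From the scanner values 133 of the 155 still had a 24 h mean at or under -0.6.

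The mean signal of both channels was a measure that the rule did not use directly. It is the mean of the log2 nitrate and control signals of a spot, and its difference between the times compares arrays of 24 h plants with arrays of 30 min plants, whichever solution they were in. It comes from the same channel readings as the ratio, so that a change or noise in a single channel touches both. A nitrate channel that is lower at 24 h lowers the ratio and the mean signal alike. The mean signal is therefore no independent support for the ratio. Time and set of arrays cannot be told apart. By this measure most of the 155 probes were dimmer at 24 h. The median difference, 24 h minus 30 min, was -0.20 in the 155, 0.02 over all probes and 0.28 in the mirror set. It was below 0 for 115 of the 155 (74.2%), for 46.7% of all probes and for 20.1% of the mirror set.

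**Figure D5:**
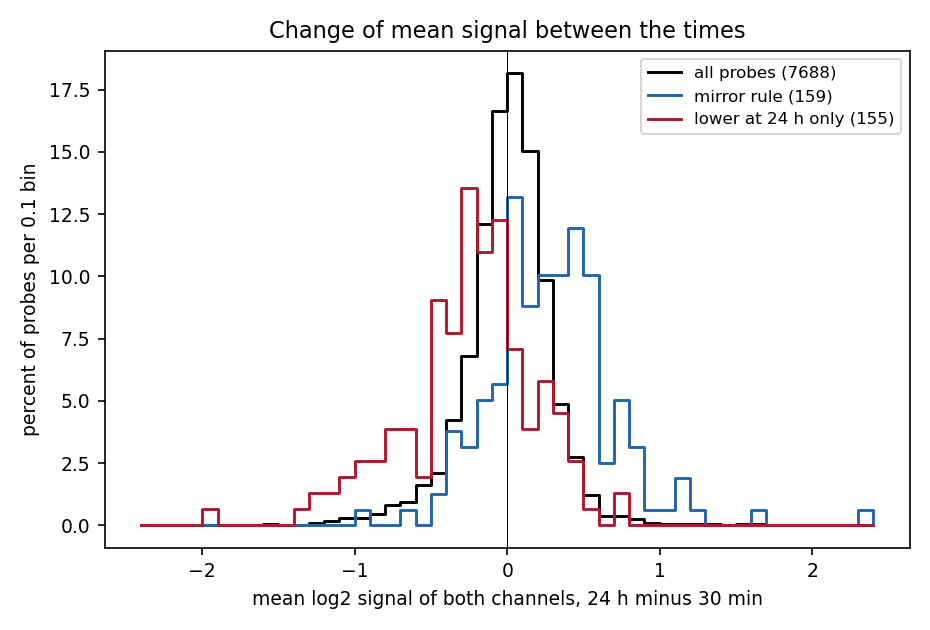
Mean log2 signal of both channels at 24 h minus that at 30 min (x axis), as the percent of probes per 0.1 bin (y axis), for all probes (black), the 155 probes lower at 24 h only (red) and the mirror set (blue). The red curve is shifted to the left, with a median of -0.20, and the blue one to the right, with a median of 0.28.

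Tested probe by probe over the whole array, the mean signal fell for 6 of the 155 (3.87%) and rose for 0, where 0.663% of all probes fell and 0.546% rose (limma, Benjamini-Hochberg adjusted p under 0.05). In the mirror set it rose for 14 (8.81%) and fell for 0. At an unadjusted p under 0.05 it was lower for 41 of the 155 and for 5.41% of all probes. The count of 6 depended on the arrays. It was 3 without 30 min replicate 1, 3 or 4, 2 without 24 h replicate 2, 3 or 5, 1 without 24 h replicate 4, and 13 without 24 h replicate 1. Over these and the other single replicates left out, 0.377% to 1.47% of all probes were called lower. Array weights gave 46 lower and 6 higher, where 663 of all probes (8.62%) were lower and 699 higher. With 30 min replicates 1 to 4 only, 17 were lower and 1 higher, where 130 of all probes (1.69%) were lower and 183 higher. Over all probes 51 fell and 42 rose, against 68 and 27 with median centring and 70 and 26 with the deposited values.

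BM266518 had the largest fall. Its log2 mean signal was 9.25 at the lowest, 9.95 at the median and 10.13 at the highest at 30 min, and 6.50, 7.90 and 8.76 at 24 h. The groups did not overlap, and the difference of -1.92 ± 0.32 (SE; limma, adjusted p = 0.00834) passed under all 24 alternatives, with adjusted p between 7.82e-05 and 0.0257. Both channels took part, the nitrate level being lower by a log2 difference of -2.18 and the control level by -1.66. Its ratio at 24 h was the less certain part. The replicates ran from -2.21 over -0.65 to 1.51 around a mean of -0.68 ± 1.34 (SD, n = 6), which was -1.12 without replicate 3 and -0.38 without replicate 2, and the orientation means were 0.13 with nitrate on Cy5 and -1.50 with nitrate on Cy3.

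BM269328 had the next largest fall in mean signal. At 30 min its log2 signals were 9.28, 9.51 and 9.73 (lowest, median, highest) and at 24 h 8.28, 8.36 and 9.47. They overlapped through 24 h replicate 1, and the difference was -0.98 ± 0.19 (SE; limma, adjusted p = 0.0209), with adjusted p between 5.49e-05 and 0.0647 over the alternatives. The log2 level of the nitrate channel changed by -1.34 and that of the control channel by -0.61. Its 24 h ratios ran from -2.16 over -0.95 to -0.25 (mean -1.06 ± 0.74, SD, n = 6). In the other 4 the mean signal fell by between 0.61 and 0.97 on the log2 scale. They included BG842880 of the doubly spotted clones, at -0.61 ± 0.12 (SE; limma, adjusted p = 0.0244), a call lost under 8 of 24 alternatives, over which the adjusted p ran from 0.000175 to 0.125. Its signals at 24 h, 10.43 to 10.89, lay below those at 30 min, 10.95 to 11.41. Another of the 4, BM332887, was dim, with a mean log2 signal of 7.34 at 24 h. It was not above local background in both channels of every High scan. Its difference was -1.366 from the High scans alone and -0.487 from the Low scans alone (limma, adjusted p = 0.0291 and 0.108). Over the whole set, all 24 h signals lay below all 30 min signals for 7 of the 155 (4.52%) and for 0.924% of all probes.

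The channels can also be followed singly between the times. The median level of the 155 probes in the nitrate channel, 24 h minus 30 min, was -0.58 on the log2 scale, and that in the control channel 0.17, against 0.01 in both over all probes. The nitrate level was lower and the control level not lower at 24 h for 103 of the 155 (66.5%), against 16.0% of all probes. Both were lower for 45 (29.0%, against 31.9%), and the control level was higher with the nitrate level not lower for 7 (4.52%, against 36.7%). BM076073 was among those whose control level moved more. Its log2 level went from 10.55 to 9.85 in the nitrate channel and from 10.72 to 11.71 in the control channel, a larger change in the control. Its mean signal differed by 0.14 ± 0.25 (SE), which missed the threshold (limma, adjusted p = 0.901). BM074035 went further that way, with 11.75 and 11.61 in the nitrate channel and 11.46 and 13.00 in the control channel. For BM079200 the mean signal differed by -0.92 ± 0.33 (SE), which also missed it (limma, adjusted p = 0.241), with a nitrate level of 9.20 at 30 min and 7.64 at 24 h. These levels were set by the choice of probes as far as the difference between the channels goes.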

How the data were processed

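The scan files hold, per the file headers, each spot's mean and median intensity, foreground and background, in Cy3 and Cy5, and normalized values of each channel. The authors' normalized values followed foreground minus background on the natural log scale, with slopes of 0.904 to 1.09. The deposited final value was their Cy5 minus Cy3 within 8.88e-16, and the value table of the series matched it within 5e-10. Medians of its columns ran from -0.0324 to 0.0595. Scanner, software and the method of centring: not given in the sources used here. Columns of samples outside the labels numbered 0.

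The ratios that define the 155 probes are the deposited values, changed from natural log to log2, turned to nitrate over control by the labels' dyes, and averaged over the 3 scans of a replicate and over the spots of a clone (7888 spots, 7688 probes). Scanner intensities served the fits with limma 3.58.1 in R 4.3.3. Foreground means were corrected by normexp with an offset of 50 and ratios normalized by loess within each scan. The ratio model had a term for each time and a common dye effect, with 9 residual degrees of freedom and a prior of 10.9. Mean signals were quantile-normalized within each scan power and compared between the times with 10 and 4.28. Saturation was read as a median foreground of 65535. Both normalizations remove shifts common to most probes. The fits and the rule were checked on simulated data. The number of arrays limits the precision.

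The probes, the lists and the tests were chosen with earlier results of these data known. Probes were named by rule: the 2 lowest means at 24 h, those next to each limit, up to 2 falls and 2 rises in mean signal, 2 doubly spotted clones, the brightest and the dimmest, and the 2 largest and 2 smallest SDs at 24 h. Alternatives were other scans, replicates, backgrounds, normalizations, weights, dye terms, filters and a replicate block. The separate dye effect at each time was chosen after seeing the data. Same-numbered replicates of the 2 times are separate plants.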

Additional observations from a re-analysis of the deposited data

Results flagged for a closer look

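In limma's test of the ratio at 24 h minus that at 30 min, 90 of the 155 probes passed, all lower at 24 h. Of all probes 1.94% were called lower. The choice of probes used this contrast and set its direction, and nothing is read from the count.

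A replicate far from the other 5 was looked for in 70 sets of values of the named probes. It was found in 5. About 1 in 20 is what chance alone flags, but DV490883 and DV493291 were named for their large SD. The count can therefore not be set against that rate. The log2 ratio of DV490883 in 24 h replicate 2 was -4.02, while its other 24 h replicates lay between -0.90 and 0.20. DV493291 had -3.67 in the same replicate against -0.70 to 0.09 in the others, and its log2 signal there was 5.90 against 6.63 to 6.83. The log2 ratio of BG841623 in 30 min replicate 6 was -1.11, with the others between -0.25 and 0.26. The log2 signal of BM269328 in 24 h replicate 1 was 9.47, with the others between 8.28 and 8.45. Over all 155 probes a distant value at 24 h was found for 10 (6.45%), 9 of them on the low side, and for 2.73% of all probes. The choice of low means bears on that share.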

How the results depend on the processing

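The rule gave 120 to 205 probes when the scans, the background correction, the averaging or the filter was changed, and at least 110 of the 155 were among them each time. With 1 replicate left out in turn it gave 144 to 222, the most without 24 h replicate 4. Of the 155, 141 to 149 were called lower at 24 h when a replicate was left out, where 4.8% to 9.34% of all probes were. Without a dye effect it was 126, where 2.8% of all probes were. At 30 min 0 of the 155 were called each time, where 58 to 105 of all 7688 probes were without single replicates. The rule used these contrasts, and nothing is read from the counts. For the change of the ratio the count of 90 was 67 to 107 without single replicates, where 1.38% to 2.98% of all probes were called lower. It was 40 from the High scans alone, against 1.05% of all probes. It was 56 without 30 min replicates 5 and 6, where fewer arrays remain, against 1.18%. Without a dye effect it was 31, against 0.715%, since dye differences then enter the spread. For the mean signal the count of 6 was 1 to 13 without single replicates, where 0.377% to 1.47% of all probes were called lower. It was 18 with 30 min replicates 1 to 4 only (17 lower, 1 higher), where 313 of all probes were called, 130 of them lower. Array weights gave 52 (46 lower, 6 higher), where 1362 of all probes were called, 663 of them lower. The cause was not tested. With a replicate block the count was 1 for the mean signal, against 0.338% of all probes called lower. For the change of the ratio it was 113, against 3.19%. The numbers did not pair the samples: deviations of same-numbered replicates correlated at -0.121 to 0.199 for the ratio and -0.329 to 0.24 for the mean signal, and 2 and 4 of 12 samples correlated best with their own number.

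Over all probes the 1127 calls at 24 h became 514 without a dye effect and 1899 with array weights, and the 565 lower ones 352 from the High scans alone. The 88 at 30 min became 55 from the High scans, 50 without a dye effect, 39 with 30 min replicates 1 to 4 only and 58 without 30 min replicate 5. The 326 in the change of the ratio became 182 from the High scans, 137 without a dye effect, 197 with 30 min replicates 1 to 4 only and 642 with array weights. The 93 in the mean signal became 52 to 184 without single replicates, 313, 1362 and 40 with 30 min replicates 1 to 4 only, array weights and the replicate block. The calls in mean signal of BG842880, BM269328, BM332887, DV490956 and BM332947 were lost under 8, 6, 7, 8 and 8 alternatives. Of the 155, 3 had a channel at or under background in a High scan at 24 h, which makes their ratios less certain.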

Other observations

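The share of probes among the 155 varied with the letters that begin the clone accession, a variation that was not tested. Accessions that begin with BM gave 55 of their 1297 probes (4.24%), those that begin with BG 28 of 1071 (2.61%) and those that begin with DV 69 of 4992 (1.38%). In the mirror set these 3 prefixes gave 3.70%, 2.33% and 1.56%. Probes were also grouped by the first part of their identifier, into 32 groups. The highest share was 21 of 365 (5.75%), followed by 19 of 375 (5.07%) and 15 of 365 (4.11%), and 5 groups held none. The median SD of all their probes over the 24 h replicates was 0.50, 0.49 and 0.50 in these 3 groups, against 0.45 over the whole array and up to 0.52 in the other groups, and its part in the shares was not tested. The group with the highest share gave 11 probes (3.01%) to the mirror set.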
